A study of Mus musculus with 7 samples.

Results

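The genes described here encode the enzymes that handle glutathione and reactive oxygen species. They were taken as the protein-coding genes whose symbols start with Gsta, Gstm, Gstp, Gstt, Gsto, Gstk, Mgst, Gpx or Prdx and a digit, together with Sod1, Sod2, Sod3, Cat, Hmox1, Nqo1, Gclc, Gclm, Gsr, Gss, Txn1, Txn2, Txnrd1, Txnrd2, Txnrd3 and Srxn1. The rule found 55 genes of the 34866 in the deposited table. RNA was measured by bulk sequencing of mouse ovaries from females aged 8 to 12 weeks, and 1 ovary was homogenised at a time. The 7 libraries formed 3 groups: wild type mice fed CD, which were fertile (n = 2), Abcg5/g8 knockout mice fed CD, which were infertile (n = 3), and Abcg5/g8 knockout mice fed VOFD, which were fertile (n = 2). ABCG5 and ABCG8 together form a sterol exporter. The labels do not spell out either diet, and they do not say that each library came from a separate animal, so each p-value reflects only sample-to-sample spread, part of which may be technical.

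Glutathione is a small thiol made in a pair of steps by glutamate-cysteine ligase (Gclc, Gclm) and glutathione synthetase (Gss). Glutathione peroxidases use it to reduce hydrogen peroxide and lipid peroxides, glutathione S-transferases attach it to reactive compounds, and glutathione reductase (Gsr) restores the oxidised form with NADPH. Superoxide dismutases, catalase and the peroxiredoxins, which are recharged by thioredoxin, remove superoxide and peroxides alongside them. Steroid-producing cells of the ovary generate reactive oxygen in their mitochondria, and many of these genes are known targets of the transcription factor NRF2, which binds antioxidant response elements.

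The values are TPM, a transcript abundance scaled by length that keeps no sequencing depth, so the depth behind each value is unknown. Each library had 14267 to 14982 genes at 1 TPM or more. Abcg5 and Abcg8 lay between 0 and 0.212 TPM in every library, wild type included, which is too low to check the genotype. The knockout CD libraries stood apart from each other as well as from the fertile ones: the first principal component of all tested genes, 39.7% of the variance, placed knockout CD library 3 at 65.5, library 2 at 19.6 and library 1 at -7.2, against -29.7 to -15.1 for the 4 fertile libraries. Summed luteal markers were 69.3 to 176 TPM in knockout CD and 959 to 1824 TPM in fertile libraries, and 4 of 5 luteal markers lay below every fertile library in all 3 knockout CD libraries. Summed erythroid markers were 1266 to 3049 against 440 to 836 TPM, with 5 of 5 higher in every knockout CD library. Granulosa markers, with Foxl2 and Fshr among them, were present in all libraries at summed levels of 1001 to 3940 TPM.

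Promoter windows from RefSeq (GRCm38.p6, 250 bases before to 50 bases after each start) were matched for 47 of the 55 genes and searched on both strands for the antioxidant response element core TGACNNNGC. The motif was present in windows of 9 of these 47 genes (19.1%) and of 3781 of 27025 genes with a window (14%). By window, 9 of 60 held it (15%), against 4071 of 32851 (12.4%) of all windows. The genes were Gclm, Gsta3, Gstm5, Gstm7, Mgst1, Prdx1, Sod1, Srxn1 and Txnrd1. Stretches of a few of them are shown: Gsta3 and Prdx1 because both had an unadjusted p under 0.05 below, and Gclm, Txnrd1 and Mgst1 because they stand for glutathione synthesis, thioredoxin reduction and microsomal conjugation. They run 5′ to 3′ on the plus strand, and capitals mark the motif or its reverse complement. They lie at chr1:21240434-21240502 (Gsta3), chr4:116685436-116685504 (Prdx1), chr3:122245393-122245461 (Gclm), chr10:82859084-82859152 (Txnrd1) and chr6:138140441-138140509 (Mgst1).
Gsta3: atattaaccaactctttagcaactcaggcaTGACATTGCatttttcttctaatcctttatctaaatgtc
Prdx1: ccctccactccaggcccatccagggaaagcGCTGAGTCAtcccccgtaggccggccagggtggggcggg
Gclm: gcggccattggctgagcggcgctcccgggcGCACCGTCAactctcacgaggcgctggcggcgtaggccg
Txnrd1: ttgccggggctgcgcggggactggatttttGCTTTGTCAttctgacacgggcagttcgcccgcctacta
Mgst1: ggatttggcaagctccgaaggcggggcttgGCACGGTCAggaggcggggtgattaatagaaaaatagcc
The Prdx1 match overlaps TGANTCA, the binding letters of the AP-1 family. The windows of Gpx3, Gsta2, Gstt1, Gstm1, Cat, Txnrd3, Prdx5 and Mgst2 held no match to TGACNNNGC. The letters TGANTCA were looked for only where they overlap such a match.

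These genes were among the more abundant in the ovary. Averaged over the 7 libraries, 18 of 55 (32.7%) reached 100 TPM, against 3.45% of all genes, and 41 of 55 (74.5%) reached 10 TPM, against 26.2%. Prdx1, a cytosolic peroxiredoxin, averaged 1087 TPM and Sod1, the cytosolic copper-zinc superoxide dismutase, 1017 TPM. They were followed by Mgst1 (884 TPM) and by Gpx4, which reduces lipid hydroperoxides in membranes (663 TPM). Mgst1 was the most abundant of all in knockout CD library 1. At the other end, 9 genes averaged under 1 TPM: Gpx6, Gstp3, Gsto2, Gpx2, Gsta1, Gstt4, Gstm3, Prdx6b and Gpx5, the last listed at 0 in every library. Together the 55 genes made up 0.84% and 0.843% of the transcripts in wild type CD, 0.96%, 0.731% and 0.762% in knockout CD, and 0.83% and 0.821% in knockout VOFD. The total was thus highest in 1 knockout CD library and lowest in the other two.

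**Figure D1:**
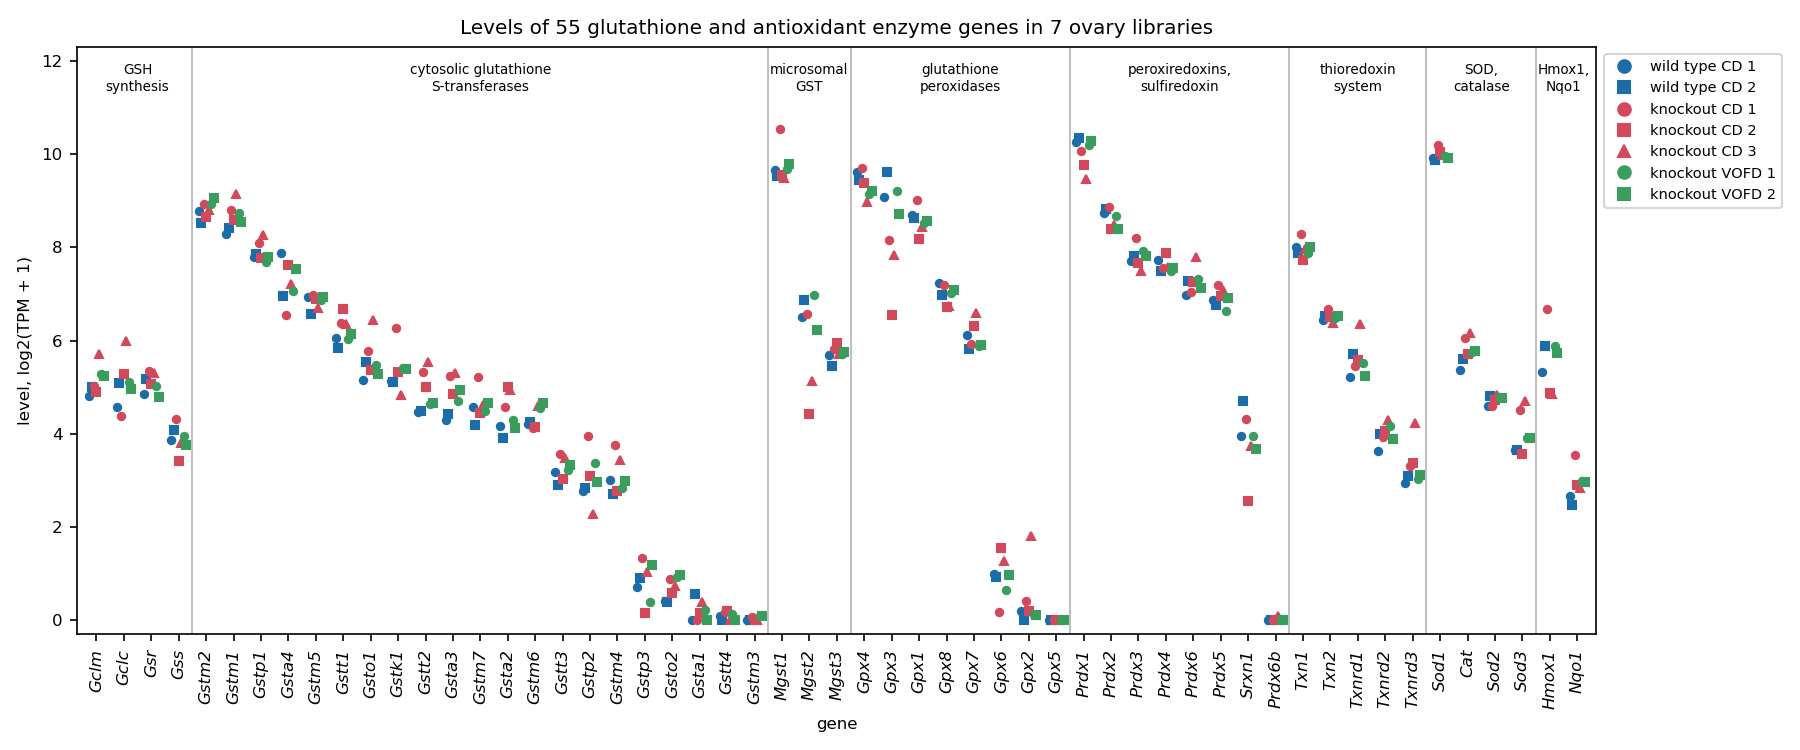
Level of each of the 55 genes in each of the 7 libraries as log2(TPM + 1), in blocks by role and ordered by mean level within a block. The block labelled cytosolic glutathione S-transferases also holds Gstk1, a mitochondrial and peroxisomal enzyme. Most genes lie above 3 on this scale, and the red knockout CD symbols spread most widely, as in Gpx3, Mgst2 and Srxn1.

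The study's design gave 4 comparisons, each tested with limma on log2(TPM + 1) over 15487 genes, of which 48 of the 55 belong here. All fold changes below are differences on this scale, and for genes at low levels they come out smaller than the true ratio. Gpx2, Gpx5, Gsta1, Gsto2, Gstm3, Gstt4 and Prdx6b did not pass the filter of 1 TPM in 2 libraries. None of the 48 genes passed a Benjamini-Hochberg adjusted p of 0.05. The share called among all genes was 0.110% for knockout CD against wild type CD, 0.0452% for knockout VOFD against knockout CD, 0.0129% for knockout VOFD against wild type CD and 0.245% for infertile against fertile ovaries. The comparisons share libraries, so they are not independent.

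At an unadjusted limma p under 0.05, 9 of 48 genes (18.8%) differed between knockout CD and wild type CD, against 10.3% of all genes, 6 of them higher (7.86% of all genes) and 3 lower in knockout CD (2.46% of all genes). Leaving out either wild type CD library lowered this count, in a fit with a single library left in that group. Leaving out knockout CD library 1 gave 16 of 48, against 21% of all genes. For infertile against fertile ovaries it was also 9 of 48 (18.8%), against 15.4% of all genes, 6 higher (all genes 11.7%) and 3 lower (all genes 3.70%). This count was 14 without knockout CD library 1 (all genes 25.6%), 15 without library 2 (all genes 17.8%) and 5 without library 3 (all genes 10.8%). Knockout VOFD against knockout CD gave 4 of 48 (8.33%), against 7.94%, 2 higher (all genes 2.86%) and 2 lower (all genes 5.08%). Without knockout CD library 1 it gave 9 (all genes 15.4%) and without library 2 it gave 7 (all genes 10%). The count fell without either knockout VOFD library, again with a single library left in that group. Knockout VOFD against wild type CD gave 0 of 48, against 1.99% of all genes (1.39% higher and 0.601% lower). The largest count under an alternative was 6, with only the 2 groups fitted, against 5.28% of all genes. The libraries of the groups compared did not overlap for 11 genes higher and 2 lower in knockout CD against wild type CD, against 20.6% and 5.95% of all genes. For infertile against fertile ovaries 6 genes were higher and 2 lower without overlap, against 11.2% and 3.76% of all genes. For knockout VOFD against knockout CD the counts were 2 and 9, against 8.68% and 17.9%, and for knockout VOFD against wild type CD 15 and 5, against 24.6% and 9.88% of all genes.

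The median log2 fold change of the 48 genes was 0.23 for knockout CD against wild type CD, where that of all genes was 0.19, and 0.17 against 0.15 for infertile against fertile ovaries. It was -0.10 for knockout VOFD against knockout CD, as for all genes, and 0.07 against 0.08 for knockout VOFD against wild type CD. Median-of-ratios scaling moved the median of all genes for knockout CD against wild type CD to -0.004 and that of the 48 genes to 0.02, and the number with a positive fold change from 37 to 26 of 48.

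**Figure D2:**
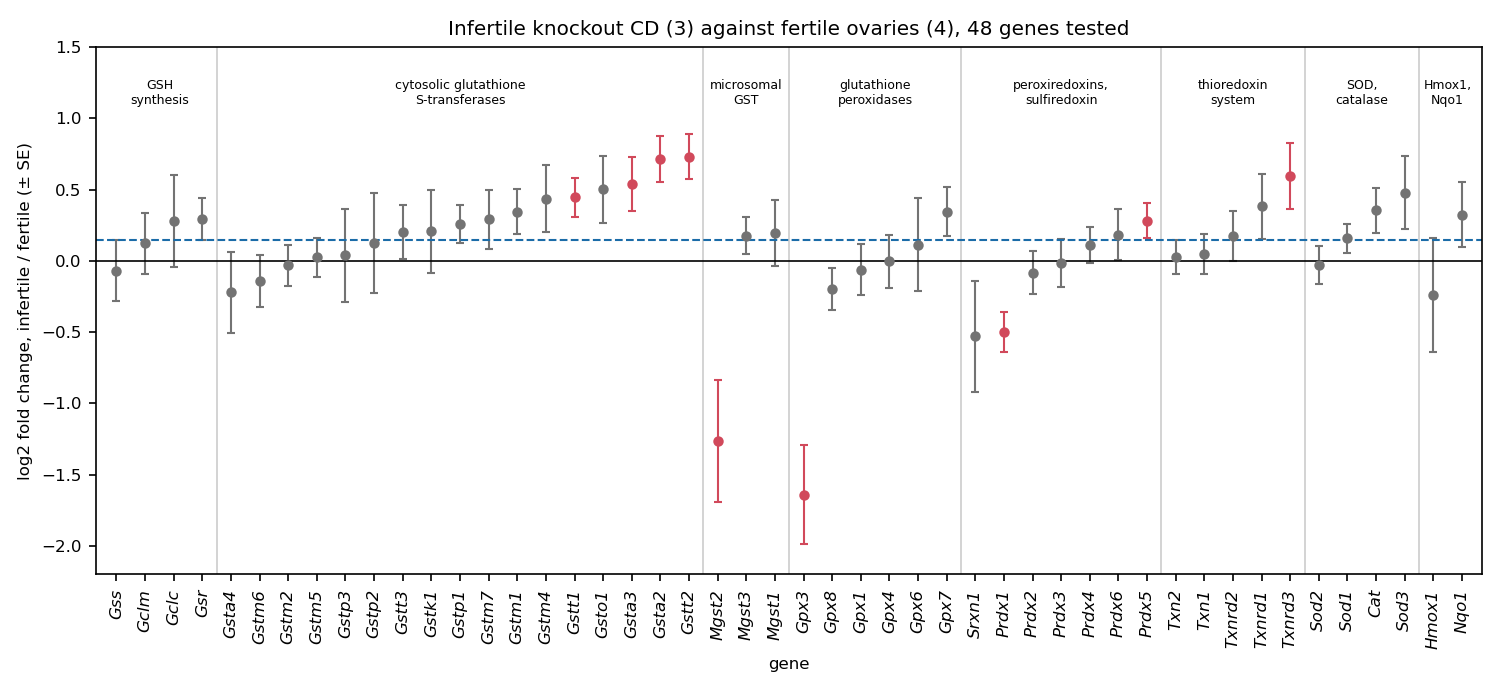
Log2 fold change of infertile knockout CD (n = 3) over fertile (n = 4) ovaries for the 48 tested genes, with standard errors, by role. Red marks an unadjusted limma p under 0.05 and the dashed line the median of all genes. The block labelled cytosolic also holds Gstk1, a mitochondrial and peroxisomal enzyme. Gpx3 and Mgst2 lie lowest, at -1.64 and -1.27, and Gstt2 and Gsta2 highest, at 0.73 and 0.71.

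Among the glutathione peroxidases, Gpx3 had the lowest log2 fold change of infertile over fertile ovaries. Gpx3 encodes the secreted peroxidase of plasma and extracellular fluid (ENSMUSG00000018339.11, chr11:54902453-54910377). Its level was 539 and 782 TPM in wild type CD, 284, 93.4 and 228 in knockout CD, and 596 and 420.5 in knockout VOFD. Every knockout CD library lay below every fertile library, with library 2 the lowest. The group means were 661 ± 172 (SD, n = 2), 202 ± 97.9 (SD, n = 3) and 508 ± 124 TPM (SD, n = 2). The log2 fold change of infertile over fertile was -1.64 (SE 0.35; limma, Benjamini-Hochberg adjusted p = 0.10), that of knockout CD over wild type CD -1.83 (SE 0.43; adjusted p = 0.249). In the other direction, knockout VOFD exceeded knockout CD by 1.45 (SE 0.43; limma adjusted p = 0.484), and knockout VOFD against wild type CD gave -0.37 with a 95% interval of -1.45 to 0.70. Luteal markers, given above, moved the same way across these groups; their part in the Gpx3 value was not tested. In whole ovary, fewer cells of a type and less RNA per cell cannot be told apart.

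The other peroxidases overlapped between infertile and fertile ovaries. Gpx1, the cytosolic peroxidase, was 415 and 394 TPM in wild type CD, 516, 289 and 345 in knockout CD, and 368 and 377 in knockout VOFD. Gpx4 was 787 and 702 TPM in wild type CD, 830.3, 667 and 503 in knockout CD, and 564 and 589 in knockout VOFD. For both, knockout CD library 1 was the highest of the 7 and the other knockout CD libraries lay inside or below the fertile range. Gpx8, an endoplasmic reticulum member, was 149 and 126 TPM in wild type CD, 146, 105 and 106 in knockout CD, and 128 and 136 in knockout VOFD. Gpx7, also of the endoplasmic reticulum, ranged from 55.9 to 96.3 TPM over all libraries and Gpx6 from 0.134 to 1.93 TPM. Stretches of 50 bases shared with other genes' transcripts covered 34.7% of Gpx4, so its reads could be divided with a copy, and none of Gpx3.

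The 17 tested glutathione S-transferases of the Gsta, Gstm, Gstp, Gstt, Gsto and Gstk genes were counted together. Of these, 16 had positive fold changes in knockout CD over wild type CD, with a median of 0.35, where 72.3% of all genes were positive. Under median-of-ratios scaling 12 of 17 were positive (70.6%), with a median of 0.14, where 49.5% of all genes were positive. As deposited, 5 of the 17 (29.4%) had an unadjusted limma p under 0.05, all higher in knockout CD, against 7.86% of all genes called higher and 10.3% called in either direction. The fertile knockout VOFD also had positive fold changes over wild type CD for 14 of the 17 (82.4%, all genes 65.3%), with a median of 0.17. Under median-of-ratios scaling this was 12 of 17 (70.6%, all genes 47.4%). In that comparison 0 of the 17 had an unadjusted limma p under 0.05. The theta-class Gstt2 (ENSMUSG00000033318.7, chr10:75831114-75837424) was 21.3 and 21.4 TPM in wild type CD, 39.4, 31.1 and 45.8 in knockout CD, and 23.8 and 24.4 in knockout VOFD. All 3 knockout CD libraries lay above all 4 fertile ones, with a log2 fold change of 0.73 (SE 0.16; limma, Benjamini-Hochberg adjusted p = 0.106) for infertile over fertile. For Gstt2 this ranged from 0.56 to 0.877 over the alternatives described below. Gstt1, its neighbour, was 66.1 and 56.4 TPM in wild type CD, 82.1, 102 and 80.5 in knockout CD, and 64.7 and 69.95 in knockout VOFD. Its groups did not overlap either, and the log2 fold change was 0.45 (SE 0.14; limma adjusted p = 0.213), or 0.28 under median-of-ratios scaling.

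The alpha-class Gsta2 (ENSMUSG00000057933.10, chr9:78331018-78355788), of the class that also reduces lipid peroxides, was 16.9 and 14.1 TPM in wild type CD, 22.8, 30.9 and 29.96 in knockout CD, and 18.8 and 16.4 in knockout VOFD. Infertile and fertile libraries did not overlap. The log2 fold change of Gsta2 was 0.71 (SE 0.16; limma, Benjamini-Hochberg adjusted p = 0.119), and 0.545 to 0.848 over the alternatives described below. Because 49.8% of its 50-base stretches also occur in transcripts of other genes, Gsta1 among them, its level is uncertain where the counting could split reads. Gsta3, which in steroid-producing tissue is known in human and pig for steroid double-bond isomerisation, was 18.8 and 20.6 TPM in wild type CD, 37.0, 27.9 and 38.9 in knockout CD, and 25.2 and 29.8 in knockout VOFD. Knockout CD lay above wild type CD in all libraries, but knockout CD library 2 lay inside the knockout VOFD range. The log2 fold change was 0.77 (SE 0.20; limma adjusted p = 0.296) against wild type CD and 0.54 (SE 0.19; adjusted p = 0.260) for infertile over fertile. Over the alternatives these ranged from 0.557 to 0.911 and from 0.367 to 0.682. Gsta4, which conjugates the lipid peroxidation product 4-hydroxynonenal, ranged from 93.4 to 235 TPM, with wild type CD at both 235 and 124 TPM and no separation of the groups.

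Among the mu class, Gstm1 was 314 and 341 TPM in wild type CD, 447, 385 and 567 in knockout CD, and 427 and 374 in knockout VOFD. Knockout CD lay above wild type CD and overlapped knockout VOFD, with a log2 fold change of 0.49 (SE 0.19; limma, Benjamini-Hochberg adjusted p = 0.441) over wild type CD, and 0.27 under median-of-ratios scaling. Gstm2 was 439 and 369 TPM in wild type CD, 485, 402 and 448 in knockout CD, and 485 and 536 in knockout VOFD. Gstm5 was 121 and 94.7 TPM in wild type CD, 126, 118 and 102 in knockout CD, and 117 and 121 in knockout VOFD. Neither separated infertile from fertile ovaries. Gstm4, Gstm6 and Gstm7 averaged 7.73, 19.9 and 23.8 TPM. Gstp1, the pi-class transferase, was 220.1 and 230.1 TPM in wild type CD, 271, 217 and 305 in knockout CD, and 206 and 219.9 in knockout VOFD, so only knockout CD library 2 lay inside the fertile range. Gstp2 and Gstt3 averaged 7.74 and 8.59 TPM and Gstp3 0.835 TPM.

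Of the microsomal transferases, Mgst2 (ENSMUSG00000074604.9, chr3:51660360-51682677), which can form leukotriene C4, had the widest spread among knockout CD libraries on the log2 scale. Its SD there was 1.09, against 0.59 for Mgst1 and 0.11 for Mgst3. Mgst2 was 90.6 and 116 TPM in wild type CD, 94.6, 20.6 and 34.1 in knockout CD, and 125 and 73.6 in knockout VOFD. Knockout CD libraries 2 and 3 lay below all fertile libraries and library 1 within them. The log2 fold change for infertile over fertile was -1.27 (SE 0.43; limma, Benjamini-Hochberg adjusted p = 0.243), -0.79 without knockout CD library 2 and -1.86 without library 1. Mgst1, the abundant membrane-bound transferase, spread most in TPM: it was 803 and 737 TPM in wild type CD, 1486, 749 and 713 in knockout CD, and 818 and 880.0 in knockout VOFD. Its value in knockout CD library 1 exceeded every other library, while library 2 lay inside the fertile range and library 3 just below it. Mgst3 ranged from 42.7 to 60.5 TPM.

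Among the peroxiredoxins, Prdx1 (ENSMUSG00000028691.12, chr4:116685544-116700822) had its lowest levels in infertile ovaries. It was 1230.0 and 1311 TPM in wild type CD, 1074, 876 and 711 in knockout CD, and 1165 and 1243 in knockout VOFD. All 3 knockout CD libraries lay below all 4 fertile ones. The log2 fold change was -0.50 (SE 0.14; limma, Benjamini-Hochberg adjusted p = 0.192) for infertile over fertile and 0.46 (SE 0.18; adjusted p = 0.602) for knockout VOFD over knockout CD. Prdx5, found in mitochondria and peroxisomes, was 117 and 108 TPM in wild type CD, 145, 123 and 135 in knockout CD, and 99.3 and 119 in knockout VOFD. These groups did not overlap, with a log2 fold change of 0.28 (SE 0.12; limma adjusted p = 0.311) that was 0.12 under median-of-ratios scaling. Trmt112 overlaps Prdx5 on the opposite strand, and strand use in the counting is not given in the sources used here.

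The remaining peroxiredoxins overlapped between infertile and fertile ovaries. Prdx2 was 427 and 456 TPM in wild type CD, 466, 336 and 357 in knockout CD, and 409 and 337 in knockout VOFD. The mitochondrial Prdx3 was 207 and 223 TPM in wild type CD, 295, 203 and 179 in knockout CD, and 240.2 and 225 in knockout VOFD. Knockout CD library 1 was highest for both. Prdx4, of the endoplasmic reticulum, was 212 and 180.0 TPM in wild type CD, 188, 235 and 192 in knockout CD, and 179 and 187 in knockout VOFD. Prdx6, the 1-cysteine member that uses glutathione, was 125 and 155 TPM in wild type CD, 131, 151 and 220.1 in knockout CD, and 158 and 139 in knockout VOFD. Its highest value was in knockout CD library 3. Srxn1, sulfiredoxin, which repairs over-oxidised peroxiredoxins, ranged from 4.90 to 24.9 TPM, lowest in knockout CD library 2.

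In the thioredoxin system, Txn1 was 257 and 234 TPM in wild type CD, 311, 212 and 248 in knockout CD, and 236 and 256 in knockout VOFD, with the groups overlapping. Txnrd3, a thioredoxin-glutathione reductase known from testis, was 6.72 and 7.54 TPM in wild type CD, 8.91, 9.42 and 17.97 in knockout CD, and 7.23 and 7.71 in knockout VOFD. All 3 knockout CD libraries lay above the fertile ones. The log2 fold change was 0.59 (SE 0.23; limma, Benjamini-Hochberg adjusted p = 0.282) and 0.29 without knockout CD library 3. Txn2 and Txnrd2, the mitochondrial pair, averaged 90.3 and 15.2 TPM, and Txnrd1, the cytosolic reductase, 48.8 TPM.

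Sod1 was 974 and 942 TPM in wild type CD, 1171, 1062 and 1014 in knockout CD, and 995 and 964 in knockout VOFD. Every knockout CD library lay above every fertile one, by a log2 fold change of 0.16 (SE 0.10; limma, Benjamini-Hochberg adjusted p = 0.452), close to the median of all genes, 0.15. Cat, catalase of peroxisomes, was 40.3 and 47.8 TPM in wild type CD, 65.8, 51.3 and 70.8 in knockout CD, and 52.8 and 53.8 in knockout VOFD. Knockout CD lay above wild type CD, by a log2 fold change of 0.49 (SE 0.19; limma adjusted p = 0.445) that was 0.28 under median-of-ratios scaling and 0.32 under quantile normalisation. Library 2 lay below the knockout VOFD values. Erythroid markers were also higher in knockout CD, as given above, and red cells carry catalase. Their sums were 2208, 3049 and 1266 TPM in knockout CD, in the same library order as the Cat values. Within knockout CD, the library with the largest sum had the lowest Cat level. The part of erythroid cells in the Cat value was not tested. Sod2 of mitochondria ranged from 23.2 to 27.4 TPM and the secreted Sod3 from 10.96 to 25.3 TPM.

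The genes of glutathione synthesis and reduction showed no member at an unadjusted p under 0.05. Gclc ranged from 20.0 to 62.5 TPM, Gclm from 26.9 to 51.2, Gsr from 26.6 to 40.1 and Gss from 9.75 to 19.1 TPM. Nqo1, a quinone reductase, ranged from 4.53 to 10.6 TPM. Hmox1, heme oxygenase 1, was picked for its values: it was 39.0 and 58.6 TPM in wild type CD, 101, 28.6 and 28.1 in knockout CD, and 58.1 and 52.5 in knockout VOFD. Knockout CD library 1 lay above all fertile libraries and the other two below them.

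**Figure D3:**
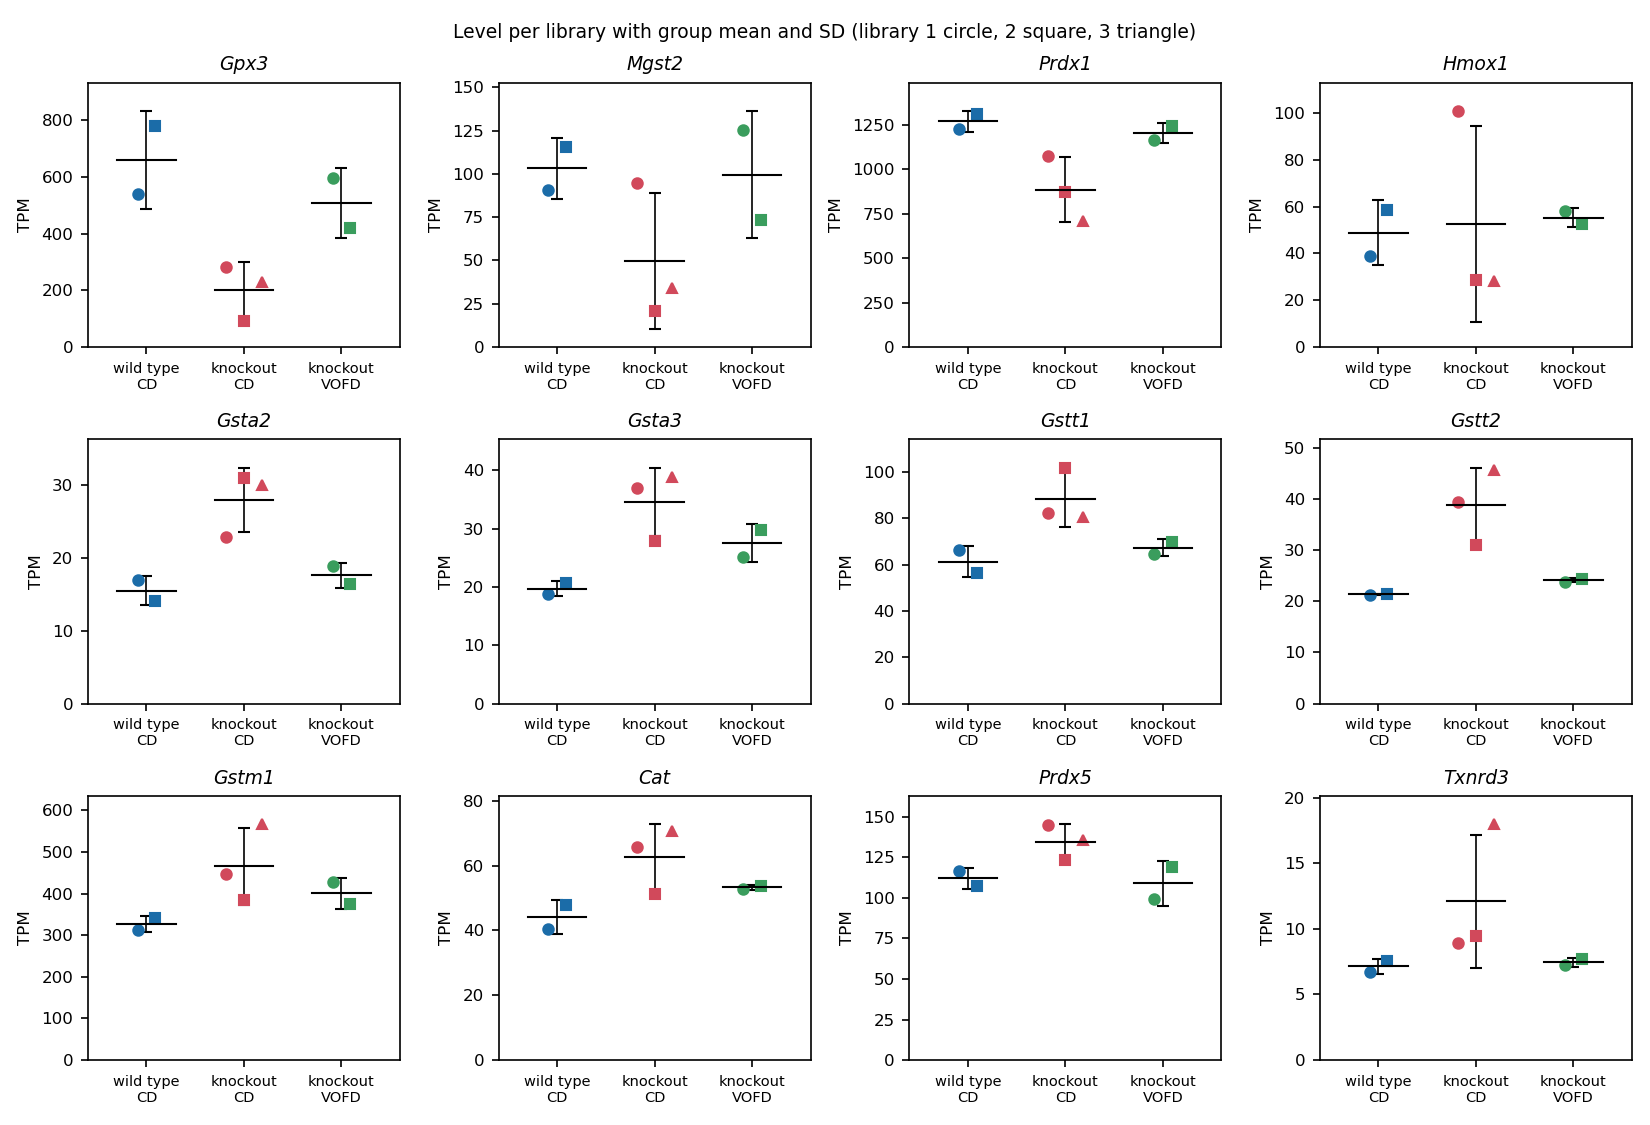
TPM in each library of 12 genes, with group means and SD; the symbol gives the library number. In Gpx3 and Prdx1 all knockout CD points lie below the fertile ones, in Gsta2, Gstt1 and Gstt2 all lie above, and in Hmox1 and Mgst2 library 1 parts from libraries 2 and 3.

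The 3 knockout CD libraries differed from each other in these genes. On the log2 scale the SD was larger in knockout CD than in the fertile libraries for 41 of 48 genes (85.4%), against 74.6% of all genes. Knockout CD library 1 held the highest value for 20 of 48 genes (41.7%), against 14.3% of all genes, Gpx1, Gpx4, Mgst1, Sod1, Txn1 and Hmox1 among them. Knockout CD library 3 held it for 15 (31.2%), against 48.4% of all genes, among them Gclc at 62.5 TPM, Txnrd1 at 81.5 TPM and Gsto1 at 86.3 TPM. Gstk1, a mitochondrial and peroxisomal transferase, was 76.4 TPM in library 1, 39.2 in library 2 and 27.4 in library 3. These 4 genes were picked after their values were seen. Highest values were counted in TPM as deposited, and the count was not repeated under another scaling. The genes described here were more abundant than most, as given above, and were not set against genes of like level. Steroidogenic markers summed to 8533 TPM in library 1 and to 4687 and 4670 TPM in libraries 2 and 3, against 6047 to 7892 TPM in fertile libraries. Granulosa markers summed to 1001, 3337 and 3940 TPM, against 1200 to 1699 TPM. Most of the granulosa sum was Inha, at 879, 3046 and 3410 TPM. For both lists no marker separated infertile from fertile libraries (0 of 4 and 0 of 5). Adipose markers summed to 2696, 1807 and 1105 TPM against 187 to 1005 TPM, with 2 of 6 higher in every knockout CD library than in any fertile one. Macrophage markers summed to 134, 129 and 220 TPM against 92.4 to 113 TPM, with 2 of 6 separated higher in knockout CD and 0 lower. Theca markers summed to 10.5, 166 and 100.1 TPM against 150.2 to 202 TPM, and 0 of 2 separated infertile from fertile libraries. The low sum of library 1 came from Cyp17a1, at 3.53 TPM. Insl3, at 7.01 TPM there, lay within its fertile range of 6.57 to 19.1 TPM. Oviduct markers summed to 19.0, 13.1 and 369 TPM against 4.04 to 46.1 TPM, so library 3, which held the highest Gclc, Txnrd1 and Gsto1 values, stood far above the rest. Most of that sum was Ovgp1, at 352 TPM. Pax8 was 9.21 TPM there, against at most 1.70 TPM in fertile libraries, while Foxj1 was 7.16 TPM there and 7.02 TPM in knockout VOFD library 2. Mitochondrially encoded transcripts made up 11.7% of library 3, against 15.4% to 18.3% of the other libraries. The part of these cell types and of the mitochondrial share in the library differences was not tested.

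**Figure D4:**
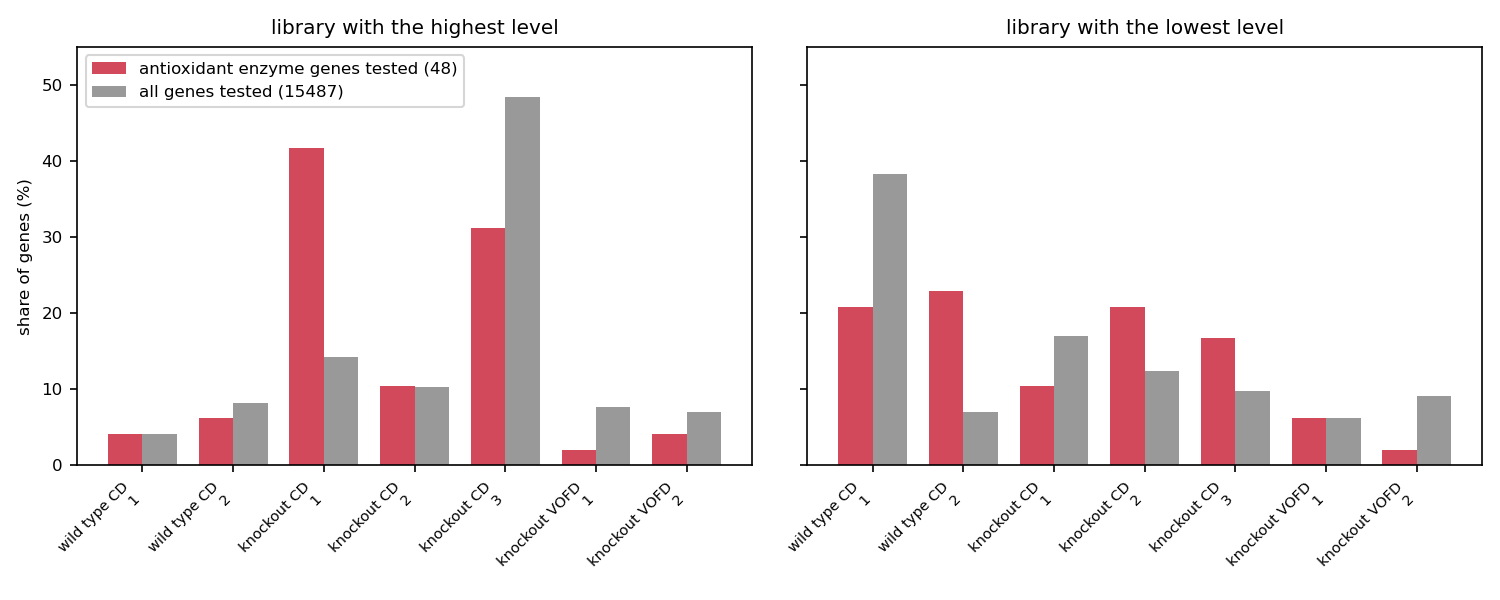
Share of genes whose highest (left) or lowest (right) level fell in each library, for the 48 genes (red) and all 15487 tested genes (grey). Knockout CD library 1 holds the highest value of 41.7% of the 48 genes against 14.3% of all genes. Levels are TPM as deposited, without further scaling.

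Without knockout CD library 1, 5 of 48 genes (10.4%) passed an adjusted p of 0.05 for infertile against fertile ovaries, against 4.34% of all genes. Mgst2 had a log2 fold change of -1.86 (SE 0.25; limma, Benjamini-Hochberg adjusted p = 0.00882) and Gpx3 of -1.96 (SE 0.34; adjusted p = 0.0192). Prdx1 followed with -0.65 (adjusted p = 0.025), Gsta2 with 0.85 (adjusted p = 0.0258) and Hmox1 with -0.84 (adjusted p = 0.0416), by limma. For knockout CD against wild type CD, Mgst2 alone passed (1 of 48, against 1.14% of all genes), at -1.91 (SE 0.31; limma adjusted p = 0.0385). The library was left out as 1 of 7 such fits, and the calls rest on its absence.

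Of 62 other tested genes of glutathione, NADPH and NRF2 pathways, none passed the adjusted p of 0.05 in any of the 4 comparisons. At an unadjusted limma p under 0.05, 9 (14.5%) differed between knockout CD and wild type CD, 8 higher and 1 lower, against 10.3% of all genes. Between infertile and fertile ovaries 11 (17.7%) differed, 10 higher and 1 lower, against 15.4% of all genes. Knockout VOFD differed in 4 genes (6.45%) from knockout CD, 1 higher and 3 lower, against 7.94% of all genes. From wild type CD it differed in 4 (6.45%), all higher, against 1.99% of all genes. The gene lower in infertile ovaries was Idh1, the cytosolic NADP-dependent isocitrate dehydrogenase, which supplies NADPH. Idh1 was 614 and 1023 TPM in wild type CD, 509, 177 and 221 in knockout CD, and 799 and 519 in knockout VOFD, so infertile and fertile libraries did not overlap. Its log2 fold change was -1.39 (SE 0.35; limma, Benjamini-Hochberg adjusted p = 0.150), while that of the mitochondrial Idh2 was 0.58 (SE 0.18; adjusted p = 0.211). Ltc4s, leukotriene C4 synthase, had a log2 fold change of 1.06 (SE 0.27; limma adjusted p = 0.287) in knockout CD over wild type CD. The fertile knockout VOFD also exceeded wild type CD, by 0.71 (SE 0.30). Ltc4s was 6.27 and 3.55 TPM in wild type CD, 13.2, 10.6 and 9.42 in knockout CD, and 9.68 and 7.24 in knockout VOFD. Knockout CD and knockout VOFD thus overlapped.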

How the data were processed

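The authors deposited TPM values for 34866 genes in 7 ovary libraries, and each column sums to 1000000. The submitters' processing notes name the genome GRCm38. No aligner, counter, annotation release or strand setting is given in the sources used here. Depth is unknown, so no counting intervals are given. Symbols came from the gene tables of the reference (34582 IDs matched) and biotypes from GENCODE M21 (34652 matched). Values were tested as log2(TPM + 1) for genes with at least 1 TPM in at least 2 libraries, with limma 3.58.1 in R 4.3.3 (moderated 2-sided test, intensity trend, Benjamini-Hochberg over 15487 genes, threshold 0.05). One fit held 3 group means with 4 residual degrees of freedom, and infertile against fertile used 2 means with 5. The method was tested on simulated data for the comparisons between single groups, not for infertile against fertile. It recovered 15.4% to 23% of the changed genes at the smallest simulated effect, 1, and 71.9% to 78.9% at 2. At the largest, 4, it recovered 94% to 97.2%. The median absolute log2 fold change of the 48 genes was 0.144 to 0.284 in these comparisons. Per-library values were given for genes with an unadjusted p under 0.05 or a mean of at least 100 TPM, and other genes by range or mean; up to 6 other pathway genes per comparison could be named. The genes and lists were chosen with earlier results of these data known. Alternatives were another pseudocount, filter, scaling and variance model, each library left out, only the groups compared, and a replicate block.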

Additional observations from a re-analysis of the deposited data

Results flagged for a closer look

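Gstm5, a mu-class glutathione S-transferase, had 1 library far from the others within the 4 fertile libraries. Its level was 94.7 TPM in wild type CD library 2, while wild type CD library 1 had 121 TPM and the knockout VOFD libraries 117 and 121 TPM. On the log2 scale its gap to the nearest library was 0.849 of the whole range, above Dixon's critical value of 0.829. Values of 25 genes were examined in this way, and chance marks about 1 in 20 such groups. The cause was not tested.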

How the results depend on the processing

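None of the 48 genes passed the adjusted p of 0.05 in any comparison or alternative, except without knockout CD replicate 1. Leaving out each library gave 0 to 1 called genes for knockout CD against wild type CD (1 without knockout CD replicate 1), 0 to 5 for infertile against fertile (5 without it) and 0 for the others; the cause was not tested. Genes with an unadjusted p under 0.05 kept the sign of their fold change in every alternative. The genes' median log2 fold change moved for knockout CD against wild type CD to 0.02 (median-of-ratios) and 0.10 (quantile) and for infertile against fertile to 0.015 and 0.026. Among all genes, the calls for infertile against fertile were 38, 64 with median-of-ratios, 59 with quantile normalisation, 4 with no filter and 665 without knockout CD replicate 1; for knockout CD against wild type CD they were 17, 3 with no filter and 174 without it. Knockout VOFD against knockout CD gave 7 calls, with 3 to 104 over the alternatives, and knockout VOFD against wild type CD gave 2, with 2 to 21. Same-numbered libraries did not deviate together (correlations of -0.186 to 0.046). In a group of 2 libraries the deviations mirror each other, so few of these correlations are independent. They cannot decide whether the numbers pair the libraries. With a replicate block 0 of the 48 genes were called in each comparison. All genes then gave 27 for knockout CD against wild type CD, 7 for knockout VOFD against knockout CD, 12 for knockout VOFD against wild type CD and 15 for infertile against fertile. TPM keeps no depth, so the part of depth in these results could not be examined.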
